A study of Mus musculus with 4 samples.

Results

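The genes described here encode the subunits and assembly factors of the mitochondrial respiratory chain and ATP synthase, the proteins of the mitochondrial ribosome, and the translocases that import proteins into mitochondria. They were chosen by a rule on names, set with earlier results of these data known. The rule goes by the single symbol of a gene in the platform annotation. It takes symbols that begin with Nduf, Sdha to Sdhd, Uqcr, Cox and a digit, Atp5, Mrpl or Mrps and a digit, Timm or Tomm. Cox6a2, the heart and muscle form of a complex IV subunit, was left out, and its values are given apart. This gave 126 of the 6404 genes in the table, read by 174 probe sets. Of the 126 genes, 91 had 1 probe set and 35 had several, whose mean was used. No gene encoded by mitochondrial DNA was among the genes with a single symbol, so all 126 are nuclear genes.

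Mitochondria make most of the cell's ATP by passing electrons from NADH and succinate through complexes I to IV, of which I, III and IV pump protons, and by letting the protons back through ATP synthase. Most subunits are encoded in the nucleus, made in the cytosol and imported through the TOM complex of the outer membrane and the TIM complexes of the inner membrane. A few core subunits are encoded by mitochondrial DNA and made by the mitochondrial ribosome, whose proteins are themselves nuclear products. Blood stem cells are known for keeping oxidative metabolism low, and for raising it as they proliferate and mature.

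RNA came from EML cells, a mouse lymphohematopoietic progenitor line kept in medium with stem cell factor (SCF), which binds and activates KIT. The populations expressed either D816V, a KIT mutant of the phosphotransferase domain, or Del417-419insY, a KIT mutant of the extracellular domain. The 4 groups were D816V with SCF at 250 ng/mL for 48 h, Del417-419insY with the same SCF treatment, D816V without SCF and Del417-419insY without SCF, with 1 array each; the design text gives 48 h for both conditions. Both mutants were delivered by a pLXSN retrovirus, selected with geneticin, grown without factor until the populations were autonomous and sorted for KIT, so all groups share these steps, and each mutant is a single transduced population.

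The values are on a log2 scale whose zero is set per probe set and is not stated. Differences between arrays can therefore be read, but levels of different genes cannot be compared, and whether a marker is present or absent cannot be seen. Of 10 progenitor markers 6 were measured, and whether the cells express them could not be checked on this scale. The array medians lay between -0.20, for D816V with SCF, and -0.015, for Del417-419insY without SCF, and the D816V array with SCF also had the widest spread of probe set values (SD 0.791, against 0.591 to 0.723 on the other arrays). A genotype difference takes Del417-419insY from D816V, and an SCF difference takes the culture without SCF from the culture with it. A gene is said to be called, to rise or to fall where its difference had a limma adjusted p under 0.05 in an additive model of genotype and SCF over 6404 genes. With 1 array per group, the only error such a model sees is how far the SCF responses of the lines disagree, so no p-value here includes the spread between cultures or between transduced populations, and without the D816V array with SCF this model has no residual degree of freedom. A fit with 1 term on the 3 arrays left can be made, and its counts stand beside the first count of called genes.

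The comparison of the mutants asks how KIT mutations of different domains differ in the expression they accompany. Between them the respiratory chain and mitochondrial ribosome genes differed little and in both directions. The fit called 19 of the 126 genes, 15.1%, where it called 42.6% of all genes. Of these 10 were higher in D816V (7.94%, against 17.9% of all genes) and 9 were lower (7.14%, against 24.7%). With genotype as the only term and 1 array left out, the count of the 126 genes called was 7 without D816V with SCF, 1 without Del417-419insY with SCF, 12 without D816V without SCF and 1 without Del417-419insY without SCF, where 24.1%, 10.1%, 33.3% and 11.5% of all genes were called. In these fits 1 line has a single array, which is assumed to vary like the other line. The absolute mean difference of a gene over both SCF states had a median of 0.22 on the log2 scale, or 1.17-fold, against 0.36, or 1.29-fold, over all genes. Whether the table's unstated selection of probe sets favoured genes that vary was not tested.

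Few of the genes reached a large difference in a single comparison. With SCF, 8 of the 126 were 1.5-fold or more higher in D816V (13.2% of all genes were) and 5 were 1.5-fold or more lower (20.4% of all genes). Without SCF the counts were 4 higher and 4 lower, where 12.2% and 12.6% of all genes passed that size. At 2-fold, Ndufb1 was the only gene higher with SCF (6.34% of all genes) and 0 were higher without SCF (6.29%), and Sdhaf4 was the only gene lower, with SCF (7.42%) and without SCF (4.2%).

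The middle of the group lay slightly above the middle of all genes. The median difference of the 126 genes was 0.09 with SCF and 0.03 without SCF, against -0.14 and -0.08 over all genes. Thus 87 of the 126 lay above the all-gene median with SCF and 80 without it. The direction relative to 0 depends on how the arrays are scaled. After cyclic loess, quantile normalization or centring on the array medians, the all-gene median of the mean difference moved to 0.04, 0.002 and 0.02, from -0.10, and the fit then called 34, 26 and 35 of the 126 genes higher and 4, 6 and 5 lower. Over all genes it called 1628, 1526 and 1720 higher and 1263, 1387 and 1302 lower, against 1147 higher and 1579 lower as deposited. The gap between the 126 genes and all genes was 0.18 as deposited and 0.16, 0.18 and 0.18 after these scalings, and the share called among the 126 genes stayed below the share among all genes, at 25.4% to 31.7% against 45.1% to 47.2%.

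The agreement between the SCF states was close to that of all genes. The difference had the same sign with and without SCF in 103 of the 126 genes, 81.7% (84.8% of all genes), above 0 in 60 (35.6% of all genes) and below 0 in 43 (49.3%). Both D816V arrays lay above both Del417-419insY arrays in 47 genes, 37.3% (29.1% of all genes), and below them in 36, 28.6% (40.7% of all genes). Across the 126 genes the differences with and without SCF correlated at 0.815 (Pearson) and 0.805 (Spearman), below the 0.922 and 0.855 over all genes. These are descriptions across genes, which are not independent replicates, and the points share the array preparations and the scaling.

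**Figure D1:**
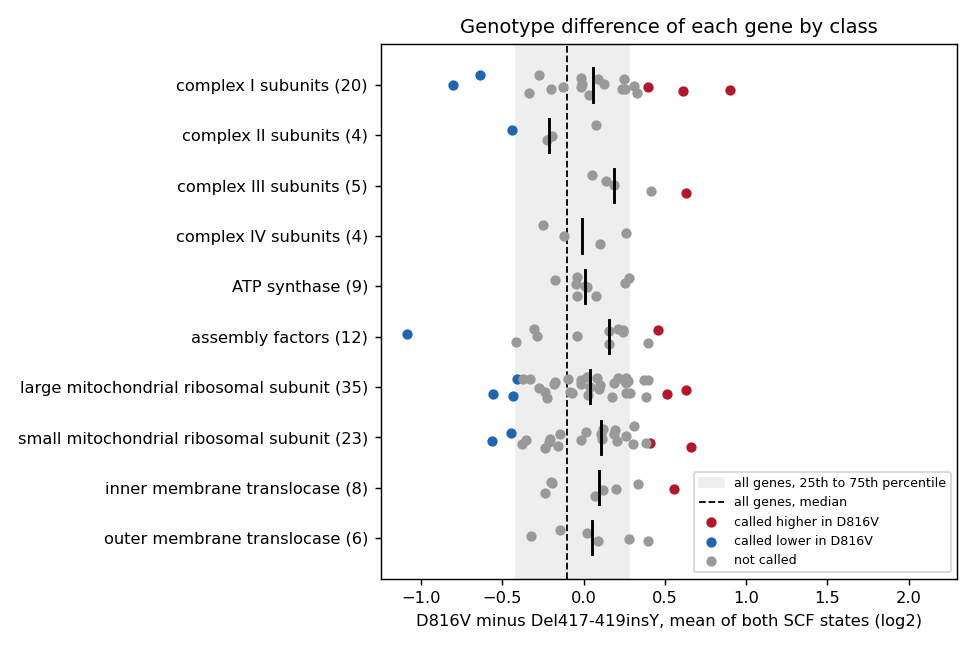
Mean difference between D816V and Del417-419insY (log2, horizontal axis) of each of the 126 genes, grouped by class with the number of genes in brackets; red and blue points were called higher and lower in D816V, grey points were not called, short bars are class medians, the dashed line is the median of all 6404 genes and the grey band their 25th to 75th percentile. Called genes lie on both sides in complex I, among the assembly factors and in both ribosomal subunits, and no gene of complex IV, ATP synthase or the outer membrane translocase was called.

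Complex I, which takes electrons from NADH, held the widest range among the respiratory complexes. It also had the most measured genes, and a range tends to widen with their number. Of the 20 measured genes named for it 3 rose in D816V, 2 fell and 15 were not called; Ndufa4, whose protein is now placed in complex IV, is counted here by its name. Each of the 3 array scalings called 8 of the 20, and the fit with genotype as the only term called 3. Ndufb1, an accessory subunit of the membrane arm, had values of 0.57 in D816V and -0.46 in Del417-419insY with SCF, and 0.49 in D816V and -0.29 in Del417-419insY without SCF. Both D816V arrays were high and both Del417-419insY arrays low, with no overlap. Ndufb1 was 1.87-fold higher in D816V on average (log2 difference 0.90, SE 0.13, limma adjusted p = 0.00637).

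Ndufa12, an accessory subunit of the peripheral arm, had values of -0.23 in D816V and -0.58 in Del417-419insY with SCF, and 0.77 in D816V and -0.10 in Del417-419insY without SCF. The genotypes overlapped, since the D816V array with SCF lay below the Del417-419insY array without SCF, and the D816V array without SCF stood far above the rest. Its mean difference was 0.61 (SE 0.16, limma adjusted p = 0.0353), made of 0.35 with SCF and 0.87 without, and it was not called with genotype as the only term. Ndufb7, an accessory subunit of the membrane arm, was the other complex I gene called higher, by 1.32-fold, and it too was not called with genotype as the only term.

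The 2 complex I genes that fell were Ndufa10 and Ndufs1. Ndufa10, an accessory subunit of the membrane arm, had values of -0.36 in D816V and 0.49 in Del417-419insY with SCF, and -0.54 in D816V and 0.22 in Del417-419insY without SCF. Ndufs1, the largest core subunit and a carrier of iron-sulphur clusters in the peripheral arm, had -0.30 in D816V and 0.27 in Del417-419insY with SCF, and -0.26 in D816V and 0.45 in Del417-419insY without SCF. For both genes the D816V arrays were low and the Del417-419insY arrays high, without overlap. Ndufa10 was 1.75-fold lower in D816V (log2 difference -0.80, SE 0.12, limma adjusted p = 0.00692) and Ndufs1 1.56-fold lower (-0.64, SE 0.12, limma adjusted p = 0.0135). Each was read by a single probe set, and so were Ndufb1 and Ndufa12. The other core subunits measured, Ndufs3, Ndufs8 and Ndufv1, were at -0.13, -0.01 and -0.20 and were not called.

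Complex II, which feeds electrons from succinate, showed its largest difference in an assembly factor. Sdhaf4, which helps the flavin-bearing subunit join the complex, had values of -0.07 in D816V and 1.05 in Del417-419insY with SCF, and 0.37 in D816V and 1.42 in Del417-419insY without SCF. It was low on both D816V arrays, and the gap between the lines was larger than that between the SCF states. Sdhaf4 was 2.12-fold lower in D816V, the largest mean difference of the 126 genes (log2 difference -1.08, SE 0.12, limma adjusted p = 0.00283). Of the 4 subunits, the membrane anchor Sdhc fell by 0.44 on the log2 scale (SE 0.12, limma adjusted p = 0.0392), and lost its call under each of the 3 array scalings, while the catalytic subunits Sdha and Sdhb stood at -0.23 and -0.20 and the second anchor Sdhd at 0.08, none of them called.

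Complex III passes electrons from ubiquinol to cytochrome c. All 5 of its measured subunits had mean differences above the all-gene median, from 0.05 for the hinge protein gene Uqcrh to 0.63 for Uqcr10, and 1 was called. Uqcr10, a small subunit, had values of 0.32 in D816V and -0.36 in Del417-419insY with SCF, and 0.01 in D816V and -0.57 in Del417-419insY without SCF. Both D816V arrays were above both Del417-419insY arrays, and Uqcr10 was 1.55-fold higher (log2 difference 0.63, SE 0.12, limma adjusted p = 0.0135). Its 3 probe sets differed in size but not in sign, with 0.34, 0.49 and 1.05.

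Among the 4 measured genes named as subunits of complex IV, cytochrome c oxidase, none was called. The subunit genes Cox5a and Cox5b stood at 0.26 and -0.25 and marked the ends of the class. After centring on the array medians 1 of the 4 was called, Cox5a. None of the 9 measured ATP synthase genes was called either. They ranged from -0.17 for Atp5o, part of the stalk that holds the catalytic head, to 0.28 for Atp5l, a subunit of the membrane part. After cyclic loess, quantile normalization and centring, 1, 1 and 2 of the 9 were called, Atp5l each time, at 0.47, 0.43 and 0.40.

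Besides Sdhaf4, the 12 assembly factors included 1 more called gene. Cox11, which delivers copper to complex IV, had values of 0.37 in D816V and -0.16 in Del417-419insY with SCF, and 0.28 in D816V and -0.10 in Del417-419insY without SCF. The groups did not overlap, and Cox11 was 1.37-fold higher in D816V (log2 difference 0.46, SE 0.12, limma adjusted p = 0.0338). In a fit with genotype as the only term Cox11 was not called.

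The mitochondrial ribosome was represented by 35 genes named for the large and 23 named for the small subunit. Genes were placed by name alone, and whether each protein, such as that of Mrps36, belongs to the ribosome was not checked. In the large subunit 2 genes rose, 3 fell and 30 were not called, and in the small subunit 2 rose, 2 fell and 19 were not called. After cyclic loess, quantile normalization and centring, 10, 8 and 11 genes of the large subunit and 6, 7 and 7 of the small subunit were called, and with genotype as the only term 2 and 1. Mrps16, of the small subunit, had values of 0.34 in D816V and -0.36 in Del417-419insY with SCF, and 0.23 in D816V and -0.39 in Del417-419insY without SCF. Values within each line were close to each other and the lines did not overlap. Mrps16 was 1.58-fold higher in D816V (log2 difference 0.66, SE 0.12, limma adjusted p = 0.0116).

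Mrpl33, of the large subunit, had values of 0.58 in D816V and -0.18 in Del417-419insY with SCF, and 0.37 in D816V and -0.13 in Del417-419insY without SCF. Both D816V arrays were high, and the gene was 1.54-fold higher (log2 difference 0.63, SE 0.13, limma adjusted p = 0.0174). Mrps5 moved the other way, with -0.67 in D816V and 0.14 in Del417-419insY with SCF, and -0.54 in D816V and -0.22 in Del417-419insY without SCF. The lines were apart in both states, by -0.80 with SCF and -0.32 without SCF, and its 3 probe sets gave -0.88, -0.41 and -0.41. Its mean difference was -0.56 (SE 0.16, limma adjusted p = 0.0392), and it was not called after cyclic loess, with the highest-mean probe set or with genotype as the only term.

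The remaining called ribosomal genes were smaller in effect. Mrpl24 and Mrps27 rose by 0.52 and 0.41 on the log2 scale. Mrpl1, Mrps9, Mrpl44 and Mrpl52 fell by 0.56, 0.45, 0.43 and 0.41. None of these 4 was called after cyclic loess. Mrpl44 and Mrpl52 were not called after quantile normalization or centring either, nor Mrps9 after centring. With genotype as the only term Mrpl1 alone of these 6 genes was called. All 6, named because they were called, had both D816V arrays on the same side of both Del417-419insY arrays. Of all genes, 29.1% had both D816V arrays above and 40.7% had them below. Called proteins of each subunit lay on both sides, and the class medians were above that of all genes by 0.142 for the large and 0.208 for the small subunit.

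In the import machinery, Timm10b was the only gene called as deposited, while 4, 2 and 2 of the 8 inner membrane genes were called after cyclic loess, quantile normalization and centring. It encodes a small TIM protein at the carrier translocase of the inner membrane, and had values of 0.34 in D816V and -0.31 in Del417-419insY with SCF, and 0.17 in D816V and -0.30 in Del417-419insY without SCF. Both D816V arrays were high, all 3 of its probe sets lay between 0.50 and 0.60, and the gene was 1.47-fold higher (log2 difference 0.56, SE 0.12, limma adjusted p = 0.0207). None of the 6 outer membrane genes was called. They ranged from -0.32 for Tomm20, a receptor for targeting sequences, to 0.40 for Tomm7, a small TOM subunit. Each of the 3 array scalings called 2 of the 6, Tomm7 among them.

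**Figure D2:**
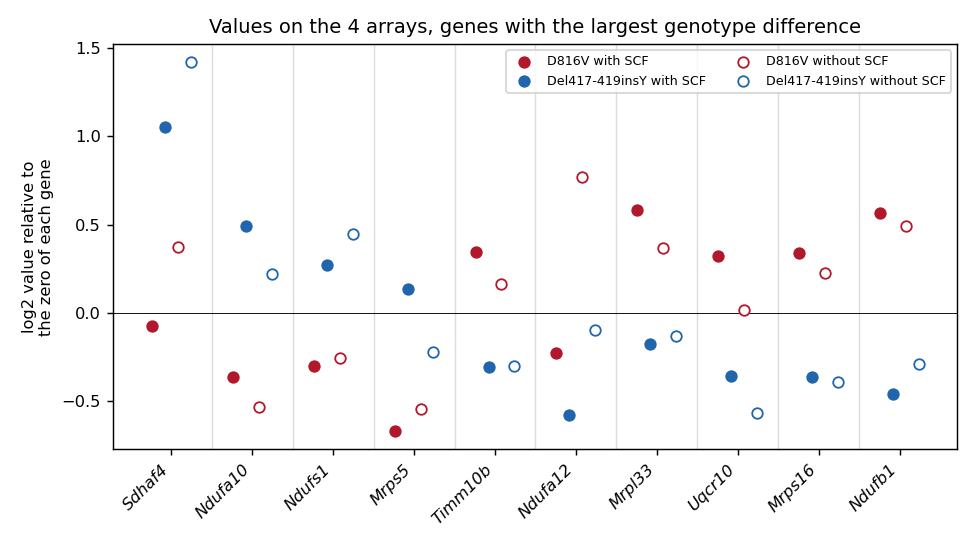
Values on the 4 arrays (log2 relative to the zero of each gene, vertical axis) of the 10 genes with the largest mean genotype difference among those with the same sign in both SCF states; red is D816V, blue Del417-419insY, filled with SCF and open without SCF, 1 array each. In 9 genes both D816V arrays lie on the same side of both Del417-419insY arrays, which the choice of genes by a large difference favours. Of all genes, 29.1% have both D816V arrays above and 40.7% below. Ndufa12 overlaps because its value in D816V with SCF, -0.23, lies below that in Del417-419insY without SCF, -0.10.

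Nuclear genes of mitochondrial proteins often share promoter elements of the ETS family factor GABPA, of NRF1 and of YY1, so the promoters of the most changed genes are shown. The windows are from RefSeq, build GRCm38.p6, 250 bases before to 50 after the gene start on the gene's strand, and 106 of the 126 genes had one. Searched on both strands were CCGGAAG for ETS factors, GCGCA, any base and GCGC in a row for NRF1 and AAGATGGCG for YY1, and capitals mark matches. Given are the 2 called genes with the largest difference in each direction that had a window: Ndufb1 at chr12:101975689-101975988, Mrps16 at chr14:20393441-20393740 (the first of 2 windows), Sdhaf4 at chr1:24005591-24005890 and Ndufa10 at chr1:92473709-92474008, all on the minus strand.
Ndufb1: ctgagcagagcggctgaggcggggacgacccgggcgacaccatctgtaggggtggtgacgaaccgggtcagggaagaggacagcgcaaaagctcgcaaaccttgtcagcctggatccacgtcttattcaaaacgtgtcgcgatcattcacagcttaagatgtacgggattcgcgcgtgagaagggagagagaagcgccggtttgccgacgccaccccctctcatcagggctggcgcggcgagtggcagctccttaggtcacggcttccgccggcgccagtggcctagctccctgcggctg
Mrps16: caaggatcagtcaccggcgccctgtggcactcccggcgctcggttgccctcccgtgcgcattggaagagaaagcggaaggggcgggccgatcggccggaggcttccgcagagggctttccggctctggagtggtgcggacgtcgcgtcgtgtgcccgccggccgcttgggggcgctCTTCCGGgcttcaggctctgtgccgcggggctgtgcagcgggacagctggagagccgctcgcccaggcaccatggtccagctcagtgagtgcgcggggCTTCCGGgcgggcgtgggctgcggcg
Sdhaf4: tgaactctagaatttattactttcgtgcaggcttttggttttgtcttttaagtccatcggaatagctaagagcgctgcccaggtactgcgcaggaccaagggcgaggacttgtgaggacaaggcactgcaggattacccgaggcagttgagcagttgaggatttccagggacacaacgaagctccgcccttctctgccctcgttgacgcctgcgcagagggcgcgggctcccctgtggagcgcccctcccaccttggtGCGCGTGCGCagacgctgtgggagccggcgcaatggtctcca
Ndufa10: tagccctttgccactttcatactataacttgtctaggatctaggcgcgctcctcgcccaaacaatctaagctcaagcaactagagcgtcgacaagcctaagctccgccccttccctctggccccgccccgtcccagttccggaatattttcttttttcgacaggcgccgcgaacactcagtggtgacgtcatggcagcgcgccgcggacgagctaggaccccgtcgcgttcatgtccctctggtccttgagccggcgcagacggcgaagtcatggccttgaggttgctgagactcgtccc
Mrps16 had 2 ETS matches, Sdhaf4 had 1 NRF1 match, and Ndufb1 and Ndufa10 had none of the motifs in these windows. The ETS motif was in 35 of the 106 genes with a window, against 21.4% of the 5248 genes of the table with a window and 8.86% of all 32851 windows. The NRF1 motif was in 17.9%, against 13.0% and 4.6%, and the YY1 motif in 8.49%, against 3.94% and 1.4%. Among genes with a window, the ETS motif was in 5 of the 10 called higher in D816V, 1 of the 7 called lower and 29 of the 89 not called. The NRF1 motif was in 0, 3 and 16 of them and the YY1 motif in 1, 0 and 8. A match describes the letters only and is no sign of binding.

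Other genes of mitochondrial function were compared in the same fit, which called 17.9% of all genes higher in D816V and 24.7% lower. Of 9 measured genes of the TCA cycle and of the pyruvate enzymes listed with it, 2 rose and 3 fell in D816V. Among the genes of the cycle itself, Idh3a rose, at 0.50, and Idh2 and Fh1 fell, at -0.775 and -0.51. Pcx, pyruvate carboxylase, was 2.96-fold higher (log2 difference 1.57, SE 0.15, limma adjusted p = 0.00189), and Pdha1, a subunit of pyruvate dehydrogenase, was at -0.84 (SE 0.15, limma adjusted p = 0.0115). Regulators of mitochondrial biogenesis gave 1 higher and 4 lower of 17. Polg, the polymerase of mitochondrial DNA, fell by 1.04 and Mterf4, a factor of mitochondrial ribosome formation, by 0.58. Tfb2m and Polg2 were also called lower, at -0.50 and -0.44, and Slirp was called higher, at 0.56. The activators Tfam, Nrf1 and Gabpa stood at -0.09, -0.30 and 0.13 and were not called.

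Factors of mitochondrial translation outside the ribosome gave 1 higher and 1 lower of 10, the elongation factor gene Gfm1 at 0.62 and the isoleucyl-tRNA synthetase gene Iars2 at -0.67. Assembly factors with other names gave 2 and 2 of 15, with the complex IV factor Coa3 at 0.98 and Bcs1l, which inserts the iron-sulphur protein of complex III, at -0.65. Electron carriers and quinone synthesis gave 1 and 2 of 10, with the quinone synthesis genes Pdss2 at 0.48 and Coq9 at -0.60. Mitochondrial carriers gave 5 and 4 of 25, with the pyrimidine nucleotide carrier Slc25a33 at 0.82 and the aspartate-glutamate carrier Slc25a13 at -1.17. Import factors with other names gave 1 and 2 of 10, with Grpel1 at 0.56 and Grpel2 at -0.67, paralogous exchange factors of the mitochondrial HSP70. Each gene named here with a value passed the test unless said otherwise. Each of these lists held called genes of both directions, where 17.9% of all genes were called higher and 24.7% lower.

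**Figure D3:**
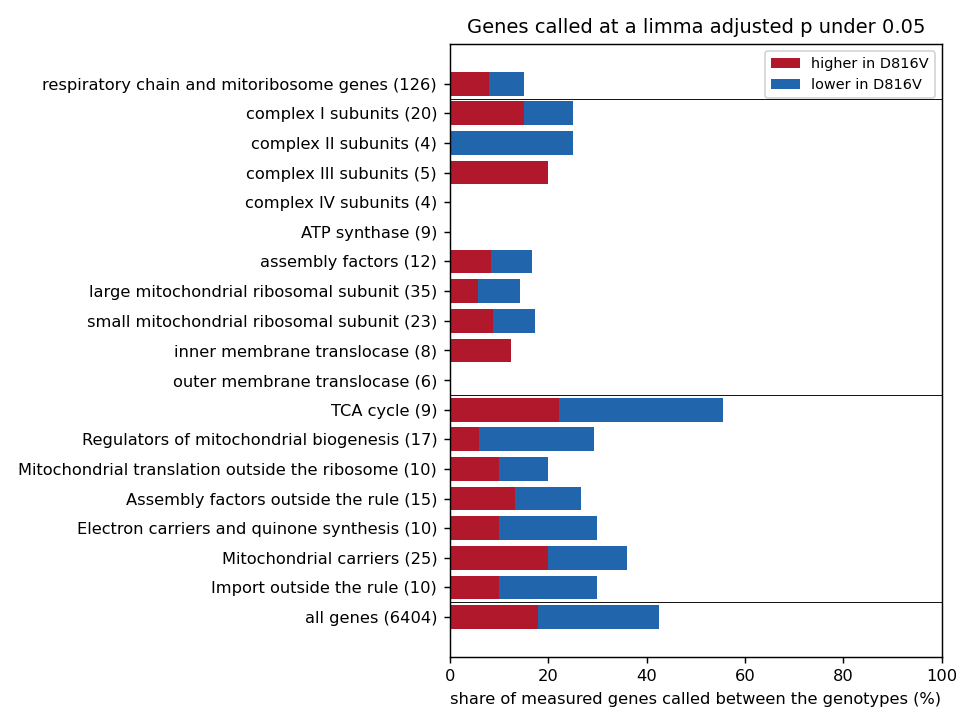
Share of measured genes called between D816V and Del417-419insY at a limma adjusted p under 0.05 (percent, horizontal axis), red for higher and blue for lower in D816V, with the number of measured genes in brackets, for the 126 genes, their classes, other lists of mitochondrial genes and all 6404 genes. The 126 genes reach 15.1% and all genes 42.6%.

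Markers of cell types moved with the genotype on a larger scale. All 5 measured mast cell markers of 6 rose in D816V, among them Fcer1a at 6.06. All 3 measured erythroid markers of 6 fell, with Car1 at -2.95. Of the 6 measured progenitor markers 4 fell, among them Myb at -0.68, and 1 rose, Gata2 at 0.46. Kit, at -1.42, is among those that fell. Mutants of KIT were delivered to these populations, which were sorted for KIT, so Kit is no plain progenitor marker here. Whether its value reads the delivered copy was not tested. Both measured megakaryocyte markers of 4 fell, as did 1 of 3 granulocyte and monocyte markers and 1 of 2 fibroblast markers, Fap at -6.12. Of 5 muscle markers 2 were measured, and Tnni1 fell by 6.41, while Cox6a2, left out by the rule, was at -3.85 with SCF and -0.21 without SCF and was not called. No lymphoid marker of 5 was measured. Of all genes 17.9% were called higher in D816V and 24.7% lower. Summed levels and markers at 0 cannot be read on a relative scale. The part of cell type in the differences of the respiratory chain genes was not tested, and fewer cells of a type and less RNA per cell cannot be told apart.

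The arrays with and without SCF address what added ligand does in each mutant. The 126 genes moved little: their absolute mean SCF difference over both lines had a median of 0.11, against 0.16 over all genes. None was called for SCF, but none of all 6404 genes was (0%), so that count does not set them apart. An unadjusted limma p under 0.05 was found for 9 of the 126 (18.5% of all genes). The fit called 1 of the 126 genes, Ndufa12, after centring and 1, Timm9, with the highest-mean probe set, and none under the other alternatives. In D816V the median SCF difference was 0.09, against -0.05 over all genes, and 94 of the 126 lay above that all-gene median. In Del417-419insY it was 0.03, against 0.03, and 59 lay above. At 1.5-fold or more, 1 gene was higher and 2 were lower in D816V (2.55% and 6.45% of all genes), and 0 were higher and 0 lower in Del417-419insY (2.14% and 2.86% of all genes). At 2-fold there were 0 higher and 0 lower in D816V (0.328% and 1.31% of all genes) and 0 and 0 in Del417-419insY (0.328% and 0.547%). These counts leave out Cox6a2, as the rule does. Its SCF differences were -2.28 in D816V and 1.36 in Del417-419insY, and it was not called for SCF.

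The SCF differences had the same sign in both lines in 79 genes (65.5% of all genes), above 0 in 52 (32.3% of all genes) and below 0 in 27 (33.2%). Classes differed in their medians. Complex I subunits were at 0.13 in D816V and 0.05 in Del417-419insY, the small ribosomal subunit at 0.08 and 0.13, and the large ribosomal subunit at 0.10 and 0.04. The inner membrane translocase was at -0.13 in D816V and -0.10 in Del417-419insY, with 5 of 8 genes below 0 in both lines and 0 above.

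The 5 genes with the largest SCF difference of the same sign in both lines did not pass the test. Ndufa12 had the largest, -0.999 in D816V and -0.48 in Del417-419insY (limma adjusted p = 0.156). Ndufa4 had values of -0.51 with SCF and -0.11 without SCF in D816V, and -0.80 with SCF and -0.28 without SCF in Del417-419insY. Both lines were lower with SCF (limma adjusted p = 0.167 for the mean of -0.46). Ndufv3, an accessory subunit of the NADH-binding module, had 0.94 with SCF and 0.30 without SCF in D816V, and 0.56 with SCF and 0.18 without SCF in Del417-419insY. It was higher with SCF in both (limma adjusted p = 0.165 for the mean of 0.51). The ribosomal protein genes Mrps15 and Mrpl50 stood at means of 0.47 and -0.46.

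The SCF response differed between the lines in a direction that was shared by many of the genes, and this could not be tested. The response in D816V minus that in Del417-419insY had a median of 0.09, against -0.06 over all genes. Above that all-gene median lay 96 of the 126 genes. Above 0 lay 84, a count that depends on how the arrays are scaled, and the share of all genes above 0 was not counted. Accordingly, the D816V array with SCF held the highest of the 4 values for 55 genes, 43.7% (23.5% of all genes), and the lowest for 21, 16.7% (36.9% of all genes). The Del417-419insY array with SCF was highest for 27 (31.5% of all genes) and lowest for 33 (19.6%). Without SCF, D816V was highest for 19 (20.9%) and lowest for 33 (21.3%), and Del417-419insY highest for 23 (24%) and lowest for 36 (22.1%). The D816V array with SCF is the array with the lowest median and the widest spread. After cyclic loess, quantile normalization and centring it held the highest value for 82, 73 and 74 genes, against 33.5%, 30.0% and 33.5% of all genes. The part of that array in this pattern was not tested.

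Single genes with the largest difference between the SCF responses ran both ways. Mrpl9, of the large ribosomal subunit, had values of -0.25 with SCF and 0.09 without SCF in D816V, and 0.04 with SCF and -0.26 without SCF in Del417-419insY. It was lower with SCF in D816V and higher with SCF in Del417-419insY, and its mean genotype difference of 0.03 hid opposite differences, -0.29 with SCF and 0.35 without; the means of its 2 probe sets were -0.03 and 0.09. Tomm7 ran the opposite way, with SCF differences of 0.28 in D816V and -0.25 in Del417-419insY. Ndufa12 and Timm29, of the inner membrane carrier translocase, were lower with SCF in both lines and more so in D816V, Timm29 by -0.69 in D816V and -0.18 in Del417-419insY. Mrps31 had SCF differences of 0.08 in D816V and 0.57 in Del417-419insY.

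**Figure D4:**
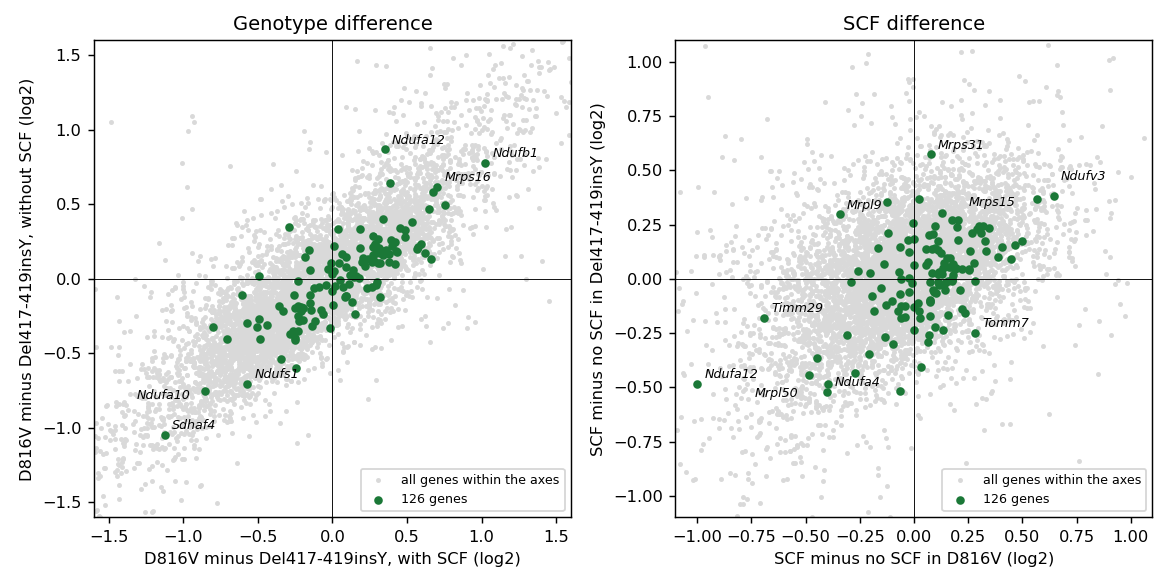
Left, difference between D816V and Del417-419insY with SCF (horizontal) and without SCF (vertical); right, difference between SCF and no SCF in D816V (horizontal) and in Del417-419insY (vertical), all log2, with the 126 genes in green and all genes within the axes in grey. The genotype differences of the 126 genes follow each other (Pearson 0.815, and 0.922 over all genes), and the SCF differences do so less (Pearson 0.538, and 0.452 over all genes).

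Probe sets of the same gene mostly gave like values. In the 35 genes with several probe sets the mean genotype differences of the probe sets spanned a median of 0.085 on the log2 scale, and in 7 genes they had both signs. Of the 19 called genes 12 had 1 probe set and 7 had several, none of them with both signs. The widest spans were in Mrpl57, from -0.42 to 0.39, in Mrpl15, from -0.55 to 0.23, and in Tomm70a, from -0.35 to 0.36, and none of these was called. These 3 were named after their values were seen.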

How the data were processed

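The deposited log2 values were made by the authors with RMA, per the submitters' processing notes, from 4 Affymetrix mouse arrays, 1 per culture. The RMA version, the log base and the level to which each probe set was set are not given in the sources used here, and log2 is taken because RMA gives it. The table holds 10861 probe sets, selected by a filter not stated; 9633 had 1 gene symbol in the platform annotation, 264 several and 964 none, and those with several or none were left out. Of the named probe sets 11 had a gene ID without a match in RefSeq of GRCm38.p6 and kept their symbol, and 6 probe sets with several symbols, 1 of which fits the name rule, were not used. Probe sets of a gene were averaged and tested with limma 3.58.1 in R 4.3.3 (lmFit, eBayes, genotype and SCF as terms, Benjamini-Hochberg, two-sided). This leaves 1 residual degree of freedom, and the shared prior (SD 0.127) adds 4.1. The same fit was run on simulated data that follow the additive model with the spread of that prior. Such data meet the model by design, so that run does not test the calls made on these arrays. The number of arrays limits the precision. Background, detection and slide could not be examined.

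The members and lists were chosen with earlier results of these data known. Named genes were the 10 with the largest genotype difference of 1 sign, the ends of each class, the 5 with the largest SCF difference of 1 sign, the 5 with the largest difference between SCF responses and those 2-fold apart, with single probe sets where a named gene's disagreed in sign; called genes were also named, and from other lists the 2 with the largest difference. A few further genes are named as examples of their class. Alternatives were cyclic loess, quantile and median scaling, the highest-mean probe set, an intensity trend, robust eBayes, a fit with 1 term and, added after seeing the data, that fit without each array in turn.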

Additional observations from a re-analysis of the deposited data

Results flagged for a closer look

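For 3 of the 28 genes chosen by the naming rule the SCF responses of the lines ran in opposite directions by more than the fit's prior SD of 0.127 on each side, with 1 array per group, and the difference was not tested. In Tomm7 the response in D816V minus that in Del417-419insY was 0.53 on the log2 scale, made of 0.28 in D816V and -0.25 in Del417-419insY. In Mrpl9 it was -0.64, made of -0.34 in D816V and 0.30 in Del417-419insY. In Mrpl1 it was -0.305, made of -0.16 in D816V and 0.14 in Del417-419insY. The naming rule itself takes genes by this difference, Mrpl9 and Tomm7 among them. Outside the 28 genes, Mrpl28, Ndufaf2, Uqcr11 and Mrpl41 also passed the limit. Their SCF differences were 0.16, 0.235, 0.222 and 0.132 in D816V. In Del417-419insY they were -0.165, -0.156, -0.141 and -0.235, in the same order. The share of all genes that pass it was not counted.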

How the results depend on the processing

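No paired analysis was possible because each group had 1 array; a slide block and background correction could not be run from processed values, and a filter on low values was not run because the values are relative. Signal over background is unknown.

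After cyclic loess, quantile normalization and centring, 34, 26 and 35 of the 126 genes were called higher in D816V (10 as deposited) and 4, 6 and 5 lower (9 as deposited). Their median genotype difference with SCF became 0.2847, 0.2431 and 0.2415. All 10 genes called higher as deposited kept their call under these 3 scalings and with the highest-mean probe set, while 3, 6, 5 and 8 of the 9 called lower did. In the same order of scalings, complex I had 8, 8 and 8 called (5 as deposited), complex II 0, 0 and 0 (1), complex III 3, 2 and 2 (1), ATP synthase 1, 1 and 2 (0), the large ribosomal subunit 10, 8 and 11 (5), the inner translocase 4, 2 and 2 (1) and the outer translocase 2, 2 and 2 (0). The small ribosomal subunit had 7 after quantile normalization and 7 after centring (4), complex IV had 1 after centring (0), and assembly factors 4 after loess and 5 after centring (2), with their median above that of all genes by 0.0892 after loess (0.26). With genotype as the only term, 690 genes were called higher and 913 lower (1147 and 1579), among them 5 and 4 of the 126, with complex I at 3, complex II at 0, assembly factors at 1, and the large and small ribosomal subunits at 2 and 1. In the fits with 1 term and 3 arrays, chosen after seeing the data, 372 to 865 genes were called higher and 277 to 1268 lower, among them 0 to 5 and 0 to 7 of the 126, and 0 for SCF. Without the D816V array with SCF the counts were 729 and 814, among them 3 and 4 of the 126; without that of Del417-419insY with SCF 372 and 277, with 0 and 1; without D816V without SCF 865 and 1268, with 5 and 7; and without Del417-419insY without SCF 373 and 366, with 1 and 0.

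For SCF, 42 genes were called after loess, 2 after quantile normalization, 256 after centring, 256 with the highest-mean probe set and 10 with an intensity trend (0 as deposited), of which 1 gene after centring and 1 under the highest-mean choice belong to the 126. At 1.5-fold, 20 of the 126 genes were apart between genotypes with SCF after loess (13); by SCF in D816V 1 was after quantile normalization and 5 after centring (3), and in Del417-419insY 1, 1 and 1 after the scalings and 2 with the highest-mean probe set (0). At 2-fold, centring left 1 with SCF (2) and 0 without SCF (1). The genotype difference of Mrpl50, -0.07 as deposited, became 0.1476, 0.0878 and 0.0475 after the scalings, and that of Timm29, -0.24, became 0.0973 after loess. Of the 19 called genes 8 kept their call under each of the 7 alternatives on 4 arrays: Mrpl33, Mrps16, Ndufa10, Ndufb1, Ndufs1, Sdhaf4, Timm10b and Uqcr10. The cause of these shifts was not tested.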
